A study of Mus musculus with 12 samples.

Results

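Mouse fetal membrane libraries that differ in both labelled genotype and labelled age were compared: 3 libraries of double knockout (DKO) membranes at embryonic day 12 (E12) against 3 libraries labelled as wild-type (WT) at embryonic day 18 (E18). These 6 of the series' 12 libraries were taken from its table of read counts by group name, and all 48795 genes of the table were read; 18153 passed the filter on low counts and were tested. The double knockout removes biglycan (Bgn) and decorin (Dcn), and the series, from its title and design, asks how their loss changes the membrane transcriptome at each age in a model of preterm birth. The other 6 libraries, E12 WT and E18 DKO, entered the estimate of the spread and serve below as an outside comparison.

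Fetal membranes are the sacs that enclose the fetus: in the mouse an amnion of epithelium and mesenchyme, and a visceral yolk sac whose endoderm makes serum proteins and whose vessels carry the first red cells. Biglycan and decorin are small leucine-rich proteoglycans, secreted proteins with chondroitin or dermatan sulfate chains that bind collagen fibrils and growth factors and help to set fibril size and tissue strength. Red cells of the yolk sac lineage use embryonic globins, and those made later in the fetal liver use adult globins.

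The E12 DKO mice lack both proteoglycans, were labelled with the strains C3H and C57BL/6, and carry the age label 12. The group labelled E18 WT has neither deletion, the strain C3H alone and the age 18. Strain, genotype and age label therefore change together between the compared groups and cannot be told apart. The outside groups were E12 WT (C3H, age 12) and E18 DKO (C3H and C57BL/6, age 18). The labels do not say whether libraries came from separate litters or pooled sacs, so p-values measure the spread between these samples, which may be partly technical. Total counts of the 6 libraries lay between 21391109 and 33065424. The adult or embryonic type of beta-globin is a readout of age that the grouping did not use. Embryonic beta-globins made up 82.3%, 84.6% and 85.1% of beta-globin counts in E12 DKO and 81.4%, 87.8% and 74.8% in the libraries labelled E18 WT, so the groups overlapped. In E18 DKO the share was 2.67%, 1.33% and 1.73%, far below every library of the compared groups. E12 WT library 1 also stood apart from its label, at 14.8%, against 95.05% and 97.1% in the other E12 WT libraries. By this readout the libraries labelled E18 WT lie with E12 DKO and not with E18 DKO, and they are called "labelled E18 WT" throughout.

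The profiles of the compared groups lay close together, and the pair was chosen with that resemblance known. The distances below give its size and are not separate support for it. The distance between a pair of libraries was taken as the median absolute difference in log2 CPM (counts scaled to a library total of 1000000 after TMM normalisation) over the tested genes. Within E12 DKO that distance was 0.162 to 0.175, and within labelled E18 WT it was 0.229 to 0.420. The 9 pairs across the groups had distances of 0.203 to 0.508 with a median of 0.306. That median falls inside the range within labelled E18 WT, and all 9 pairs lay above the range within E12 DKO. E12 DKO was farther from E12 WT, at 0.401 to 0.677, and farthest from E18 DKO, at 0.785 to 0.890. Library 3 labelled E18 WT stood apart from libraries 1 and 2 of its group, and the 3 longest distances across the compared groups all involved it. Without it, the remaining cross-group pairs lay at 0.203 to 0.306, and libraries 1 and 2 labelled E18 WT were 0.229 apart. The upper end of the range within labelled E18 WT thus rests on library 3 as well.

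**Figure D1:**
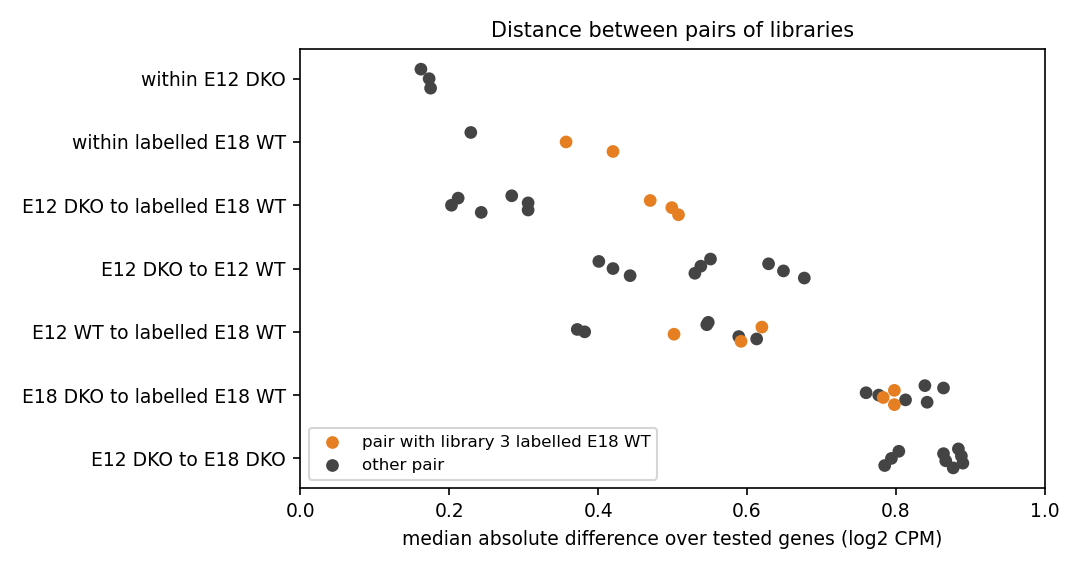
Median absolute difference in log2 CPM over tested genes (x axis) for each pair of libraries, with 1 row for each pair of groups; orange points are pairs with library 3 labelled E18 WT. Pairs across E12 DKO and labelled E18 WT sit between 0.203 and 0.508, left of all pairs of E12 DKO with E18 DKO at 0.785 to 0.890.

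A gene is called here when its adjusted p is under 0.05 in edgeR's quasi-likelihood test, adjusted by the Benjamini-Hochberg method across the whole set tested. Of the 18153 genes, 34 were called (0.187%), 29 higher in E12 DKO (0.16%) and 5 lower (0.0275%). An unadjusted p under 0.05 was reached by 1657 of the 18153 genes. At a called share of 0.187%, 0 calls in a gene list is the usual outcome. It does not show that the list is unchanged. The CPM of the groups did not overlap in 30.0% of tested genes, 15.5% with E12 DKO higher and 14.5% with it lower, so a gene without overlap is common in this comparison. The 34 called genes lie on 16 chromosomes. Of the 34, 11 are protein-coding, 20 are annotated as processed pseudogenes (copies of a gene's spliced RNA inserted elsewhere in the genome), 2 are long intergenic RNAs and 1 is a processed transcript.

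The 5 genes that fell include both targeted genes. Bgn, on GRCm38 chromosome X from 73483602 to 73495933, measured 16.4, 16.2 and 14.3 CPM in E12 DKO against 239, 223 and 381 CPM in labelled E18 WT. The log2 difference was -4.17 ± 0.35 (SE, 3 libraries a group; edgeR adjusted p = 0.00086). Dcn, on chromosome 10 from 97479500 to 97518162, measured 5.92, 8.44 and 6.95 CPM in E12 DKO against 198, 353 and 978 CPM in labelled E18 WT, a log2 difference of -6.16 ± 0.67 (edgeR adjusted p = 0.0053). All 3 DKO libraries lay far below all 3 labelled E18 WT libraries for both genes, as the genotype labels have it, although a low level of counts remained at each locus. Which exons each knockout removes is not given in the sources used here. Genes in a window of 10 Mb on either side of the targeted loci were counted to see whether neighbours moved with them. Of the 77 other genes tested near Dcn and the 99 near Bgn, 0 were called by edgeR, the DESeq2 Wald test or limma voom. In edgeR 8 and 11 had an unadjusted p under 0.05. Over all tested genes edgeR called 0.187%, and 1657 of 18153 had an unadjusted p under 0.05. At that share 0 calls in windows of this size cannot show whether neighbours moved.

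Zdhhc9, an X-linked palmitoyltransferase that attaches fatty acids to Ras and other proteins, fell as well (chromosome X, 48171969 to 48208878). It lies 25.3 Mb from Bgn. Its level was 47.3, 54.0 and 55.0 CPM in E12 DKO and 155, 154 and 103 CPM in labelled E18 WT. The groups did not overlap, and the log2 difference was -1.40 ± 0.22 (edgeR adjusted p = 0.030). It was the 1 called gene among 21 tested genes for palmitoyltransferases and their partner Golga7, whose median log2 difference was 0.01 against -0.02 for all tested genes. Zdhhc1, from the same family, was at 13.9, 13.8 and 12.5 CPM against 16.8, 14.9 and 23.1 CPM and was not called (log2 difference -0.45 ± 0.25, edgeR adjusted p = 0.62). The call of Zdhhc9 was kept in 1 of the 6 fits that leave out a compared library, and was lost with the replicate number as a block (edgeR adjusted p = 0.097) and with a covariate for Y-linked level (0.056), while its log2 difference over the 6 fits ran from -1.57 to -1.30.

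Pop4, a protein subunit of RNase P, the enzyme that trims transfer RNA precursors, was at 6.70, 6.61 and 7.23 CPM in E12 DKO against 19.4, 15.9 and 27.8 CPM in labelled E18 WT. It fell by 1.62 ± 0.22 on the log2 scale (edgeR adjusted p = 0.015). The processed transcript 1810026B05Rik was at 15.5, 16.1 and 13.5 CPM against 31.5, 25.2 and 37.7 CPM, a log2 difference of -1.06 ± 0.18 (edgeR adjusted p = 0.045). Neither gene's groups overlapped. In these genes the 3 E12 DKO libraries lay below E18 DKO as well as below the wild-type libraries: Pop4 had 24.02, 20.1 and 20.7 CPM in E18 DKO beside 10.7, 9.56 and 12.8 CPM in E12 WT.

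The 29 genes that rose are mostly near-identical copies of another gene. A gene was taken as such a copy when its longest transcript matched a transcript of a separate gene at 90% identity or more over 90% or more of its length. By that rule 23 of the 29 are copies, each with a different protein-coding match, at 90.8% to 99.9% identity. The whole set of tested genes holds 562 copies (3.1%). Of these 4.09% were called, all higher in E12 DKO, against 0.0625% of the 17591 genes without a near-identical copy. Copies were looked at after the called genes had been seen, so these shares are not independent of the calls. Reads from a copy and its match can be assigned to either or to neither, since reads aligned to several places were not counted, so each value of a copy below is uncertain. Sequences of 3 copies are shown with their matches, because the few positions at which a pair differs are what separates their reads. They are 100-base windows within the match's coding sequence, 5′ to 3′ on the transcribed strand, from the GENCODE M21 transcripts of GRCm38; capitals mark the positions at which the pair differs.

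Gm13394 is a processed pseudogene matching Gapdh, the glycolytic enzyme glyceraldehyde-3-phosphate dehydrogenase; it differs at 1 of 1000 aligned bases, and the window chr2:28934215-28934314 (minus strand) is set against coding bases 296 to 395 of Gapdh.
Gm13394: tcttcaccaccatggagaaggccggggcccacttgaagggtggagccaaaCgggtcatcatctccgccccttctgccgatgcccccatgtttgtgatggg
Gapdh: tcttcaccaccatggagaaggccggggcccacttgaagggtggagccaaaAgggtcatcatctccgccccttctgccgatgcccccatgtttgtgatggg

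Gm15772 matches Rpl26, a protein of the large ribosomal subunit; it differs at 2 of 438 aligned bases, 1 of them in the window chr5:3236557-3236656 (plus strand), set against coding bases 127 to 226 of Rpl26.
Gm15772: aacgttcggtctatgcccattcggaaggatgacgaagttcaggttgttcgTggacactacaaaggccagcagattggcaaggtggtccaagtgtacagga
Rpl26: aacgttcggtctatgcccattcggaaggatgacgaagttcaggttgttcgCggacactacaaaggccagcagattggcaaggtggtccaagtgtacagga

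Rps15a-ps8 matches Rps15a, a protein of the small ribosomal subunit, and is less alike; it differs at 30 of 387 aligned bases, 14 of them in the window chr4:53791355-53791454 (minus strand), set against coding bases 3 to 102 of Rps15a.
Rps15a-ps8: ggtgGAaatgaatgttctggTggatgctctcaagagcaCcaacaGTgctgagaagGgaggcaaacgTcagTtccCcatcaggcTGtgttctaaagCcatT
Rps15a: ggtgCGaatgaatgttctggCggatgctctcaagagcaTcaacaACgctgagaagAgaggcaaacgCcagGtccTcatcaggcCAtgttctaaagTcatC

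Gm13394 had the lowest p of the comparison. It was at 136, 111 and 124 CPM in E12 DKO against 0.377, 0.410 and 0.164 CPM in labelled E18 WT. E12 WT, at 73.4, 176 and 116 CPM, and E18 DKO, at 58.3, 48.5 and 27.3 CPM, lay with E12 DKO, so only the libraries labelled E18 WT were near 0 among the 12. The summed counts of the groups, scaled by library size, gave a ratio of 376 (95% interval 260 to 566, counting error only), and the log2 difference was 8.55 ± 0.50 (edgeR adjusted p = 3.7e-05). Gapdh itself was at 410, 454 and 378 CPM in E12 DKO against 719, 761 and 513 CPM in labelled E18 WT, and was not called (log2 difference -0.68 ± 0.35, edgeR adjusted p = 0.59). The copy held 23.0% of the counts of the pair in E12 DKO, 14.5% in E12 WT and 11.9% in E18 DKO, and 0.0477% in labelled E18 WT.

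Gm15772 was at 65.1, 33.1 and 30.8 CPM in E12 DKO against 0.264, 0.381 and 0.575 CPM in labelled E18 WT (log2 difference 6.72 ± 0.72, edgeR adjusted p = 0.0053). Its match Rpl26 was at 5.29, 47.4 and 52.2 CPM in E12 DKO against 141, 115 and 134 CPM in labelled E18 WT. The copy thus held 55.1% of the pair's counts in E12 DKO and 0.312% in labelled E18 WT, beside 87.9% in E12 WT and 72.4% in E18 DKO. Rpl26 was not called (log2 difference -1.89 ± 1.15, edgeR adjusted p = 0.64). In E12 DKO library 1 the copy exceeded Rpl26, and in libraries 2 and 3 it was below it, so the split of counts between the 2 genes varied within a group too. Rps15a-ps8 had 4.90, 4.03 and 2.30 CPM in E12 DKO but 0 counts in all 3 labelled E18 WT libraries. With a floor of 3 counts per library it was at least 34.5-fold higher in E12 DKO (edgeR adjusted p = 0.015). Rps15a was at 146, 121 and 147 CPM against 233, 171 and 284 CPM and was not called.

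Coding genes among the copies behaved in the same way. Eno1b, a copy of the glycolytic enzyme enolase gene Eno1, was at 16.4, 16.6 and 13.1 CPM in E12 DKO against 0.0754, 0.117 and 0.123 CPM in labelled E18 WT (log2 difference 7.12 ± 0.62, edgeR adjusted p = 0.00086). Eif3j2, a copy of the translation initiation factor gene Eif3j1, was at 9.33, 9.49 and 8.97 CPM against 0.452, 0.0293 and 0.123 CPM. C1s2, a relative of the complement protease gene C1s1, had 162 counts over the E12 DKO libraries and 2 over labelled E18 WT, a ratio of 71.7 with a counting interval of 19.5 to 597. Trim34b, from an interferon-inducible family of ubiquitin ligases, was at 2.60, 3.22 and 2.13 CPM against 0, 0.117 and 0.0821 CPM. It held 54.7% of the counts it shares with Trim34a in E12 DKO and 0.819% in labelled E18 WT. Each of these 4 genes was low in labelled E18 WT alone: Eif3j2, for example, had 11.8, 20.7 and 17.2 CPM in E12 WT beside 8.13, 20.7 and 17.3 CPM in E18 DKO.

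The other 16 copies are processed pseudogenes of genes for ribosomal proteins (Rps3, Rps26, Rpl3, Rpl31), mitochondrial ribosomal proteins (Mrps5, Mrpl27, Mrpl48), the chaperone Hsp90ab1, the replication clamp Pcna and 7 others. Among them, Gm12312 and Gm8918 had 0 counts in all 3 labelled E18 WT libraries and were at least 13.4-fold and 4.92-fold higher in E12 DKO. Rps26-ps1 had a different pattern over the 12 libraries. It was at 8.91, 12.3 and 10.9 CPM in E12 DKO against 0.151, 0 and 0.205 CPM in labelled E18 WT. In the outside groups it had 9.91, 21.8 and 18.5 CPM in E12 WT beside 0.110, 0.213 and 0.436 CPM in E18 DKO. It was therefore near 0 in both groups labelled E18 and high in both groups labelled E12, while its match Rps26 was at 217, 252 and 215 CPM in E12 DKO against 270, 241 and 282 CPM in labelled E18 WT.

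The protein-coding matches were not called with their copies. By edgeR 0.187% of all 18153 tested genes were called and 1657 had an unadjusted p under 0.05. Of the 23 matches, 0 were called by edgeR's quasi-likelihood test (lowest adjusted p 0.40), the DESeq2 Wald test or limma voom. In edgeR 4 of the 23 had an unadjusted p under 0.05. In sign 21 were lower in E12 DKO and 2 higher, and their log2 differences ran from -1.89 to 0.07 with a median of -0.44. Summing the CPM of each copy and its match gave group means within 2-fold of each other for 22 of 23 pairs, with a median log2 ratio of -0.27. Most copies add few counts to their match, and the matches alone were already within 2-fold in 21 of 23. The exception was Gm11942 and its match Gm10073, whose sum was higher in E12 DKO (log2 ratio 3.65). Whether the split of reads between copy and match, or RNA from the copy itself, differs between the groups was not tested.

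**Figure D2:**
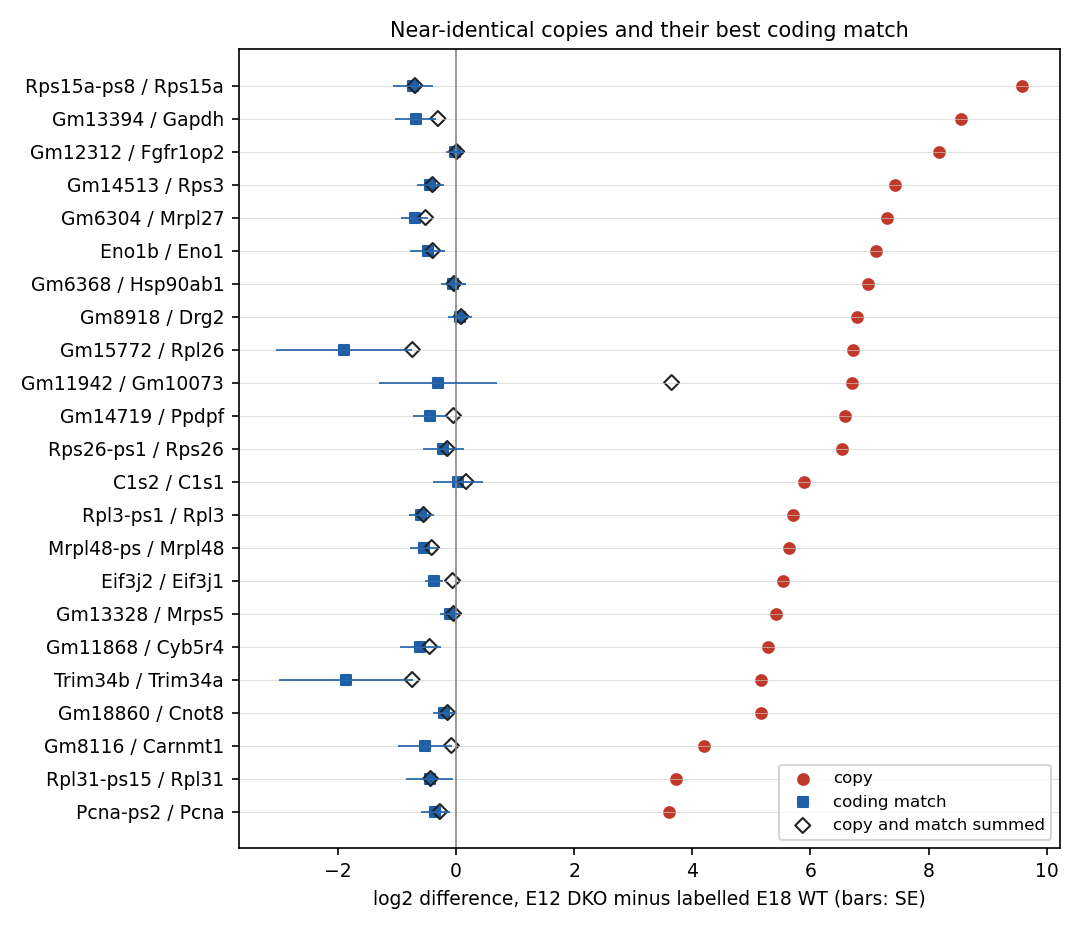
Log2 difference, E12 DKO minus labelled E18 WT (x axis), for the 23 called near-identical copies (red), their protein-coding matches (blue, bars are SE) and the log2 ratio of the group means after summing each pair (open diamonds). Copies sit to the right, while 21 of 23 matches lie left of 0 and 22 of 23 sums lie within 2-fold, as 21 of the matches do alone.

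Processed pseudogenes as a class, looked at after the called genes had been seen, leaned the same way. The values of the class include the 20 called members that prompted the look, so they are not separate support for those calls. Of 359 tested, 20 were called (5.57%), all higher in E12 DKO, against 0.0787% of the 17794 other genes. The median log2 difference was 0.42 in the class and -0.03 in the other genes. The groups did not overlap with E12 DKO higher in 85 (23.7%), beside 15.4% of the other genes. They did not overlap with E12 DKO lower in 32 (8.91%), beside 14.6% of the other genes. A comparison with all 9 other libraries was made for the class. The libraries labelled E18 WT lay below all 9 others in 32 of the 359 (8.91%) and above all 9 in 1, where over all tested genes the shares were 1.64% below and 1.63% above. Of the 29 called higher genes, 26 were below all 9 others in labelled E18 WT. Those 29 were selected for lying below E12 DKO in labelled E18 WT, so this count is not comparable with the shares above. Genes near 0 in labelled E18 WT passed the low-count filter through the other groups.

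**Figure D3:**
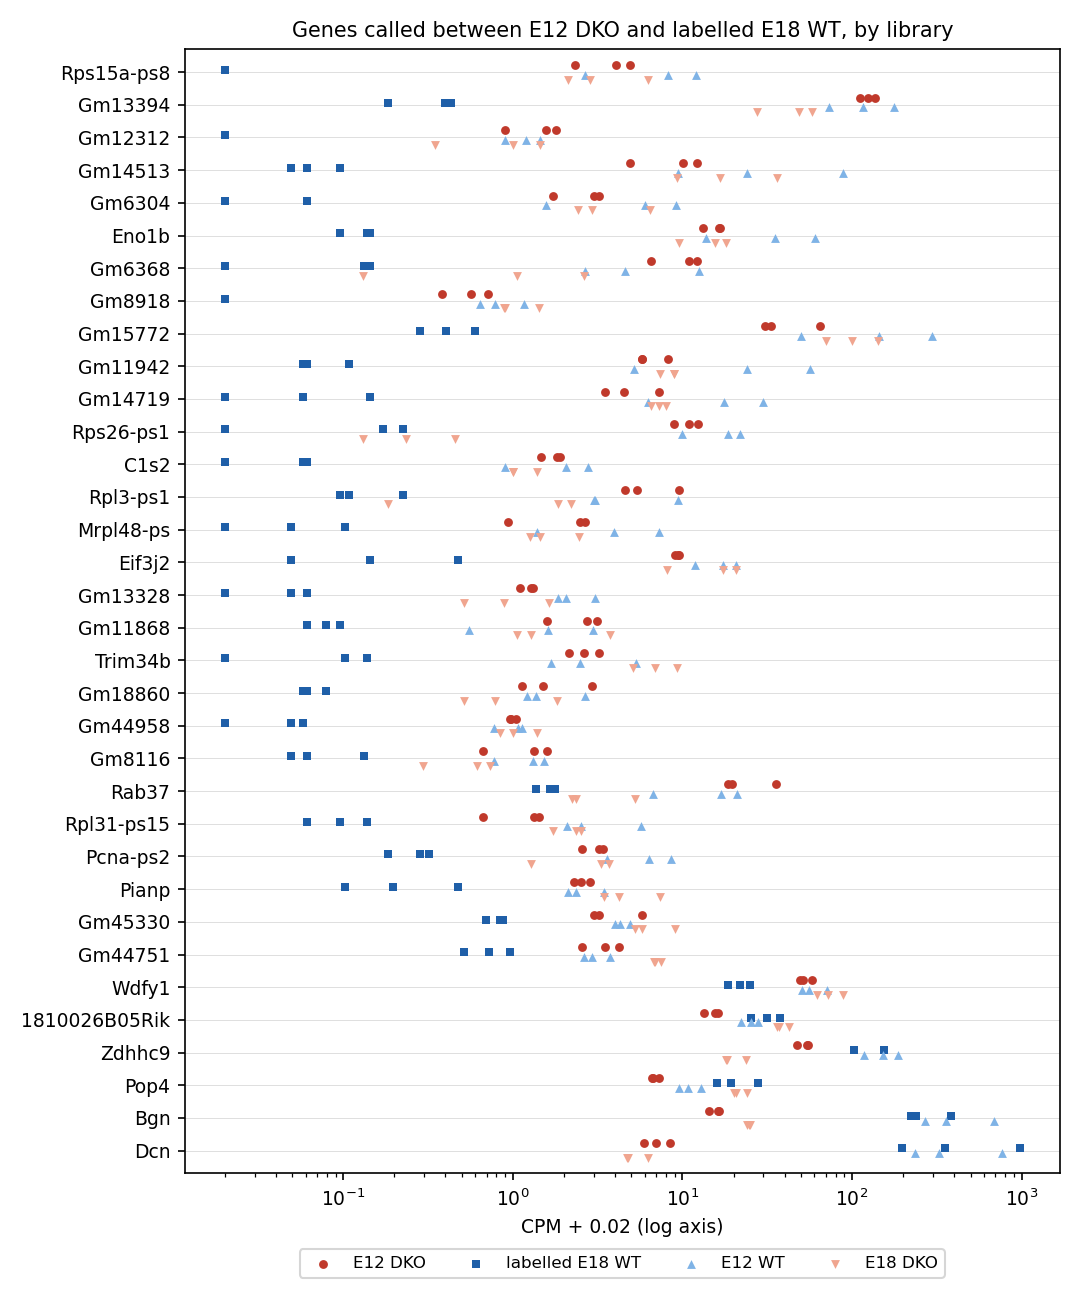
CPM plus an offset of 0.02 (log x axis) of the 34 called genes in all 12 libraries, 1 row a gene, in the order of their log2 difference; each point is a library. In 26 of the 29 upper rows the dark blue squares of labelled E18 WT lie left of all 9 other points, and in the lower 5 rows they lie right of the red circles of E12 DKO.

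Of the genes that rose, 6 have no near-identical copy by the rule above. Rab37, a small GTPase of secretory vesicles, was at 19.6, 18.6 and 35.7 CPM in E12 DKO against 1.36, 1.76 and 1.64 CPM in labelled E18 WT (log2 difference 3.95 ± 0.51, edgeR adjusted p = 0.011). E12 WT had 6.65, 21.1 and 16.8 CPM beside 2.20, 2.35 and 5.23 CPM in E18 DKO, so both groups labelled E18 were the low ones. Wdfy1, an endosomal adaptor of Toll-like receptor signalling, was at 49.2, 51.2 and 58.1 CPM against 21.7, 18.4 and 25.03 CPM. That is a log2 difference of 1.28 ± 0.19 (edgeR adjusted p = 0.024), with E12 WT and E18 DKO all at 50.6 CPM or more. Pianp, a membrane protein that binds the inhibitory receptor PILRA, was at 2.83, 2.27 and 2.49 CPM against 0.452, 0.176 and 0.0821 CPM (log2 difference 3.39 ± 0.54, edgeR adjusted p = 0.033). The long intergenic RNA Gm44751 was at 4.21, 3.46 and 2.52 CPM against 0.942, 0.703 and 0.492 CPM (log2 difference 2.24 ± 0.33, edgeR adjusted p = 0.020). A second one, Gm45330, was at 2.99, 5.76 and 3.21 CPM against 0.678, 0.850 and 0.821 CPM (2.34 ± 0.35, edgeR adjusted p = 0.023). The processed pseudogene Gm44958 had 93 counts over E12 DKO and 2 over labelled E18 WT, a ratio of 41.2 with a counting interval of 11.1 to 345. In each of these 6 genes the compared groups did not overlap.

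A second comparison with no library in common sets the same genotypes against each other with the age labels exchanged: E18 DKO against E12 WT. There 5044 genes were called (27.8%), so a call in it is common. Of the 34 called genes, 11 had the same direction in both comparisons, beside 46.8% of all tested genes. The genes that fell were split. Dcn (log2 difference -6.40 ± 0.68 in E18 DKO against E12 WT), Bgn (-4.16 ± 0.35) and Zdhhc9 (-2.93 ± 0.23) were lower in DKO in both and called in both. Pop4 (0.97 ± 0.22) and 1810026B05Rik (0.62 ± 0.18) were higher in E18 DKO than in E12 WT and called there too. Of the 29 genes that rose, 21 had the opposite direction in the second comparison. Only Gm44751 was called the same way in both, at 1.19 ± 0.31 in the second, and 5 were called the opposite way. Rab37 (-2.19 ± 0.47) and Rps26-ps1 (-6.03 ± 0.70) are among those 5. Zdhhc9 was at 18.2, 18.1 and 23.5 CPM in E18 DKO, with 186, 152 and 117 CPM in E12 WT, so all 6 DKO libraries of the series lay below all 6 wild-type libraries. E12 WT library 1, whose globin share went against its label, enters both the second comparison and the spread. Without it 60 genes were called between E12 DKO and labelled E18 WT, and 16 of them had the same direction in the second comparison.

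**Figure D4:**
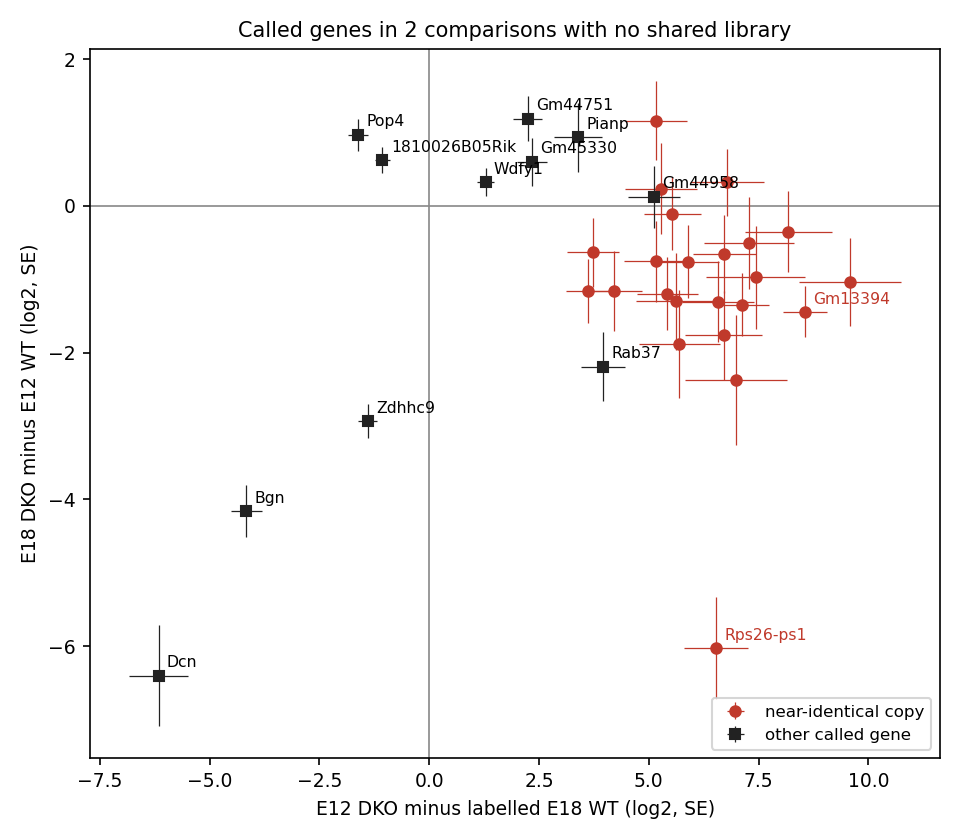
Log2 difference (bars are SE) of the 34 called genes in E12 DKO minus labelled E18 WT (x axis) and in E18 DKO minus E12 WT (y axis), with near-identical copies in red. Dcn, Bgn and Zdhhc9 lie at the lower left, lower in DKO in both, and Rps26-ps1 at the lower right has -6.03 on the y axis.

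Other small leucine-rich proteoglycans did not pass the test. Of 14 family members tested, the targeted Bgn and Dcn fell and 0 rose, beside 0.0275% and 0.16% of all tested genes. The median log2 difference, with the targeted pair counted, was -0.41 beside -0.02 for all genes. That median, again with the targeted pair, was -0.26 without library 3 labelled E18 WT and -0.67 without E12 DKO library 2. Lumican (Lum), which like decorin binds fibrillar collagen, was at 405, 434 and 438 CPM in E12 DKO against 548, 677 and 962 CPM in labelled E18 WT, without overlap (log2 difference -0.78 ± 0.24, edgeR adjusted p = 0.39). Fibromodulin (Fmod), another collagen-binding member, was at 112, 153 and 104 CPM against 127, 147 and 227 CPM and overlapped. Osteoglycin (Ogn) was at 18.3, 18.7 and 23.9 CPM against 23.8, 24.6 and 31.0 CPM, with overlap at the edge. Of the 5 members named so far only the targeted pair and Lum had groups that did not overlap. Asporin (Aspn), a relative of decorin and biglycan, was at 1.15, 3.15 and 2.24 CPM against 2.19, 7.15 and 15.9 CPM. Prelp, which binds collagen and heparan sulfate, was at 31.2, 33.5 and 30.2 CPM against 36.6, 39.2 and 36.5 CPM. Tsukushi (Tsku), a secreted inhibitor of growth factor signalling, was at 7.72, 8.37 and 6.59 CPM against 9.54, 12.4 and 16.0 CPM, and like Prelp did not overlap. The other 6 tested members, Chad, Chadl, Ecm2, Nyx, Optc and Podn, had log2 differences from -0.89 to 0.94 and overlapping groups. Of the 14, 5 had no overlap with E12 DKO lower and 0 with it higher, and the 5 include the targeted pair. The shares over all tested genes were 14.5% and 15.5%, so the groups not overlapping in Lum, Prelp and Tsku do not set the family apart.

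Genes that track developmental age gave no call between the compared groups. Of 16 such genes tested, 0 were called by edgeR's test, the DESeq2 Wald test or limma voom. In edgeR 0 had an unadjusted p under 0.05, and the median log2 difference was 0.10. Over all 18153 tested genes edgeR called 0.187%, and 1657 had an unadjusted p under 0.05. With 16 genes these counts cannot show that the groups are alike in age. Lin28a, an RNA-binding protein that blocks let-7 maturation in early embryos, was at 68.6, 74.7 and 59.99 CPM in E12 DKO against 78.7, 82.5 and 52.6 CPM in labelled E18 WT. In E18 DKO it was at 1.15, 1.45 and 20.4 CPM. Trim71, itself a target of let-7, was at 41.9, 52.2 and 41.4 CPM against 39.1, 44.0 and 31.2 CPM, and at 3.30, 3.97 and 11.4 CPM in E18 DKO. The growth-linked RNA-binding protein gene Igf2bp1 was at 141, 132 and 136 CPM against 113, 117 and 96.1 CPM, and at 30.7, 33.4 and 35.8 CPM in E18 DKO. Igf2bp1 did not overlap between the compared groups, while Lin28a and Trim71 did, and every E18 DKO value of the 3 genes lay below both groups. These 3 are examples: over the 16 genes, E18 DKO lay below all 6 compared libraries in 10, above them in 2 (Igf2 and Igf2bp2) and overlapped them in 4. The same count over all tested genes was not taken. E18 DKO differed in many genes, with 8349 of 18153 called by edgeR against E12 DKO and 7678 against labelled E18 WT. The count over the 16 therefore cannot be read as a trait of timing genes. Of 35 cell-cycle genes 0 were called and 0 had an unadjusted p under 0.05. Between the compared groups edgeR called 0.187% of all tested genes, and 1657 had an unadjusted p under 0.05. The cell-cycle median was -0.04.

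Markers of membrane mesenchyme were lower in E12 DKO in sign, and 0 of 16 passed edgeR's test. All 16 had negative log2 differences, with a median of -1.46 beside -0.02 for all genes. The groups did not overlap in 9, all with E12 DKO lower, beside 14.5% of all tested genes. An unadjusted p under 0.05 was reached by 9 of the 16, beside 1657 of all 18153. The DESeq2 Wald test called 4 of them (Hoxa13, Hoxd13, Prrx1 and Prrx2) and limma voom 0. Prrx2, a homeobox gene of mesenchyme, was at 0.592, 1.56 and 0.305 CPM in E12 DKO against 6.07, 2.31 and 4.43 CPM in labelled E18 WT (log2 difference -2.38 ± 0.62, edgeR adjusted p = 0.30). Hoxa13, a homeobox gene of posterior tissues that include the allantois, was at 0.723, 2.88 and 0.886 CPM against 8.52, 5.65 and 4.39 CPM. Hoxd13, of the same class, was at 1.08, 0.746 and 0.277 CPM against 29.9, 1.82 and 2.59 CPM, with labelled E18 WT library 1 far above the rest. The summed level of the 16 markers was 988 to 1112 CPM in E12 DKO and 1147, 1341 and 2903 CPM in labelled E18 WT. Library 3 was the high one, and without it the list's median was -0.43. In bulk tissue, fewer cells of a type and less RNA per cell cannot be told apart.

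Trophoblast and decidual genes, which mark adjoining placental and maternal tissue, differed mainly through that same library. The list's 15 tested genes had a median log2 difference of -1.61. By edgeR's test 0 were called, and 1 (Tpbpa) by the DESeq2 Wald test. In edgeR 8 of the 15 had an unadjusted p under 0.05, beside 1657 of all 18153 tested genes. The list's summed level was 237, 268 and 257 CPM in E12 DKO and 258, 281 and 1401 CPM in labelled E18 WT. Without library 3 labelled E18 WT the median was -0.08. Prl8a9, a prolactin-family hormone of the placenta, was at 0.197, 0.712 and 0.775 CPM in E12 DKO against 2.86, 1.03 and 161 CPM in labelled E18 WT. Tpbpb, a marker of spongiotrophoblast, was at 0.0657, 0.542 and 0.249 CPM against 3.13, 0.703 and 137 CPM, and the pregnancy-specific glycoprotein Psg23 was at 0.0657, 0.203 and 0.166 CPM against 1.81, 0.264 and 50.6 CPM. Several genes of other roles were also highest in library 3. The keratin Krt5 of basal epithelium was at 6.70, 10.3 and 1.11 CPM against 19.6, 14.4 and 166 CPM, and the Wnt antagonist Sfrp2 was at 1.58, 10.6 and 1.14 CPM against 16.9, 31.0 and 115 CPM. The part of placental tissue in the differences of other genes was not tested.

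Erythroid genes were lower in E12 DKO in sign, and E12 DKO library 1 held the least. All 3 primitive and all 15 definitive erythroid markers had negative log2 differences, with medians of -1.38 and -0.58. Without E12 DKO library 2 the medians were -1.92 and -1.03, and without E12 DKO library 1 they were -0.99 and -0.42. Without labelled E18 WT library 2 they were -1.19 and -0.44, with 13 of the 15 definitive markers negative. By edgeR's test 0 were called, and the DESeq2 Wald test called Hba-a1 and Hbb-bt. In edgeR 1 of the 3 and 4 of the 15 had an unadjusted p under 0.05, beside 1657 of all 18153. Hbb-y, the main embryonic beta-globin, was at 536, 2293 and 1487 CPM in E12 DKO against 5858, 4716 and 6846 CPM in labelled E18 WT. The groups did not overlap, and the log2 difference was -2.01 ± 0.74 (edgeR adjusted p = 0.47). Hba-a1, an adult alpha-globin, was at 154, 499 and 318 CPM against 1322, 967 and 1747 CPM (log2 difference -2.05 ± 0.45, edgeR adjusted p = 0.18).

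Markers of the visceral yolk sac endoderm gave no call. Of 21, 0 were called by edgeR's test, the DESeq2 Wald test or limma voom, and 0 had an unadjusted p under 0.05. Over all 18153 tested genes edgeR called 0.187%, and 1657 had an unadjusted p under 0.05. The markers' median log2 difference was 0.27, or 0.04 without library 3 labelled E18 WT. Their summed level was 92230 to 96650 CPM in E12 DKO and 90200, 84670 and 58510 CPM in labelled E18 WT, so library 3 was again apart, on the low side. Lrp2, the megalin receptor with which the endoderm takes up proteins, was at 1751, 1694 and 1897 CPM against 1137, 1515 and 597 CPM (log2 difference 0.72 ± 0.42, edgeR adjusted p = 0.62). Hnf4a, a transcription factor of endoderm and liver, was at 308, 324 and 327 CPM against 280, 281 and 130 CPM. The summed levels of macrophage markers were 751 to 786 CPM against 669 to 935 CPM, and those of endothelial markers 542 to 626 CPM against 485 to 834 CPM, so both overlapped. Neutrophil and acute-phase genes were low in both groups, at 11.4 to 15.2 CPM in sum against 11.6 to 70.3 CPM, where E18 DKO had 1724 to 3834 CPM. Of the epidermal markers, 8 of 15 had too few counts to be tested.

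The immediate early list and the hypoxia and glycolysis list had medians below 0 and 0 calls by edgeR's test. In the immediate early list, genes that react within minutes to a stimulus or to tissue handling, the median log2 difference was -0.51 over 20 genes. Of these, 10 had no overlap with E12 DKO lower and 0 with it higher, beside 14.5% and 15.5% of all tested genes. Egr1 was at 5.26, 5.66 and 5.10 CPM in E12 DKO against 13.003, 10.5 and 38.3 CPM in labelled E18 WT (log2 difference -1.95 ± 0.45, edgeR adjusted p = 0.23). Fosb was at 0.657, 0.542 and 0.332 CPM against 4.56, 2.02 and 9.11 CPM (-3.35 ± 0.75, edgeR adjusted p = 0.19). All 3 E12 DKO libraries were below all 3 labelled E18 WT libraries for both, and the DESeq2 Wald test called Egr1 and Fosb. In edgeR 5 of the 20 had an unadjusted p under 0.05, beside 1657 of all 18153 tested genes. Of 25 hypoxia and glycolysis genes, 13 had no overlap with E12 DKO lower and 1 with it higher. The shares over all tested genes were 14.5% and 15.5%, and the list's median was -0.44. An unadjusted p under 0.05 in edgeR was reached by 3 of the 25, beside 1657 of all 18153 tested genes. The lactate carrier gene Slc16a3 was at 28.6, 30.0 and 24.4 CPM against 42.0, 70.6 and 94.4 CPM, and the phosphofructokinase gene Pfkl was at 93.7, 90.1 and 69.6 CPM against 130, 171 and 104 CPM. Gapdh and Eno1, given above as matches of called copies, belong to that list as well.

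Matrix and signalling lists beside the proteoglycans gave 0 calls by edgeR's test, which called 0.187% of all tested genes. Over all 30 lists, 2 held a called gene by edgeR, the same number by limma voom, and 12 by the DESeq2 Wald test, which in these matrix and signalling lists called Mmp16, Tgfbr1 and Sfrp2. Fibrillar and associated collagens had a median log2 difference of -0.32 over 20 genes, basement membrane genes -0.02 over 23, elastic fibre and crosslinking genes -0.47 over 26, and matrix proteases and inhibitors -0.45 over 26. Without library 3 labelled E18 WT these medians were -0.03, 0.04, -0.29 and -0.06 in the same order, so the collagen and protease medians rest on that library. Col12a1, a collagen that associates with fibrils, was at 484, 492 and 793 CPM in E12 DKO against 350, 294 and 230 CPM in labelled E18 WT, the 1 collagen of its list without overlap on the higher side (log2 difference 1.02 ± 0.38, edgeR adjusted p = 0.47). In the TGF-beta list the median was -0.05, and 0.085 without library 3 labelled E18 WT. Its ligand genes Tgfb2 (15.7, 25.6 and 18.6 CPM against 24.6, 44.9 and 127 CPM) and Tgfb3 (16.5, 24.3 and 16.4 CPM against 18.6, 42.7 and 104 CPM) overlapped between the groups, with library 3 labelled E18 WT the highest in each. The receptor gene Tgfbr1 was higher in E12 DKO without overlap, at 189, 172 and 223 CPM against 137, 139 and 120 CPM (log2 difference 0.56 ± 0.16, edgeR adjusted p = 0.36). The Wnt list had 11 of 32 genes with an unadjusted p under 0.05, beside 1657 of all 18153. Its median was -0.52, and that of interferon-stimulated genes was -0.35 over 34. Without library 3 labelled E18 WT these medians were -0.27 and -0.13.

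Medians of the lists not yet given were 0.09 for cholesterol synthesis, 0.02 for the antioxidant and NRF2 response, -0.04 for heat-shock chaperones, -0.30 for mitochondrially encoded transcripts and -0.65 for Y-linked genes with Xist. Cholesterol synthesis was at -0.06 without library 3 labelled E18 WT and at -0.04 without E12 DKO library 3, the antioxidant response at -0.08 and the mitochondrial transcripts at -0.12 without library 3 labelled E18 WT. The 5 genes of the last list ran from -8.04 without E12 DKO library 3 to -0.06 without E12 DKO library 1 or 2. Among cell markers they were -0.21 for endothelium, -0.25 for macrophages, -0.30 for amnion-type epithelium, -0.38 for smooth muscle, -0.49 for cornifying epidermis, -0.75 for cartilage and -0.97 for neutrophil and acute-phase genes. Without library 3 labelled E18 WT they were, in that order, -0.05, -0.05, 0.07, -0.08, -0.12, -0.30 and -0.59, so each lay nearer to 0 and that of amnion-type epithelium turned in sign. Library 1 labelled E18 WT weighed on some too: without it cornifying epidermis was at -0.01, cartilage at -0.27 and smooth muscle at -0.75.

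**Figure D5:**
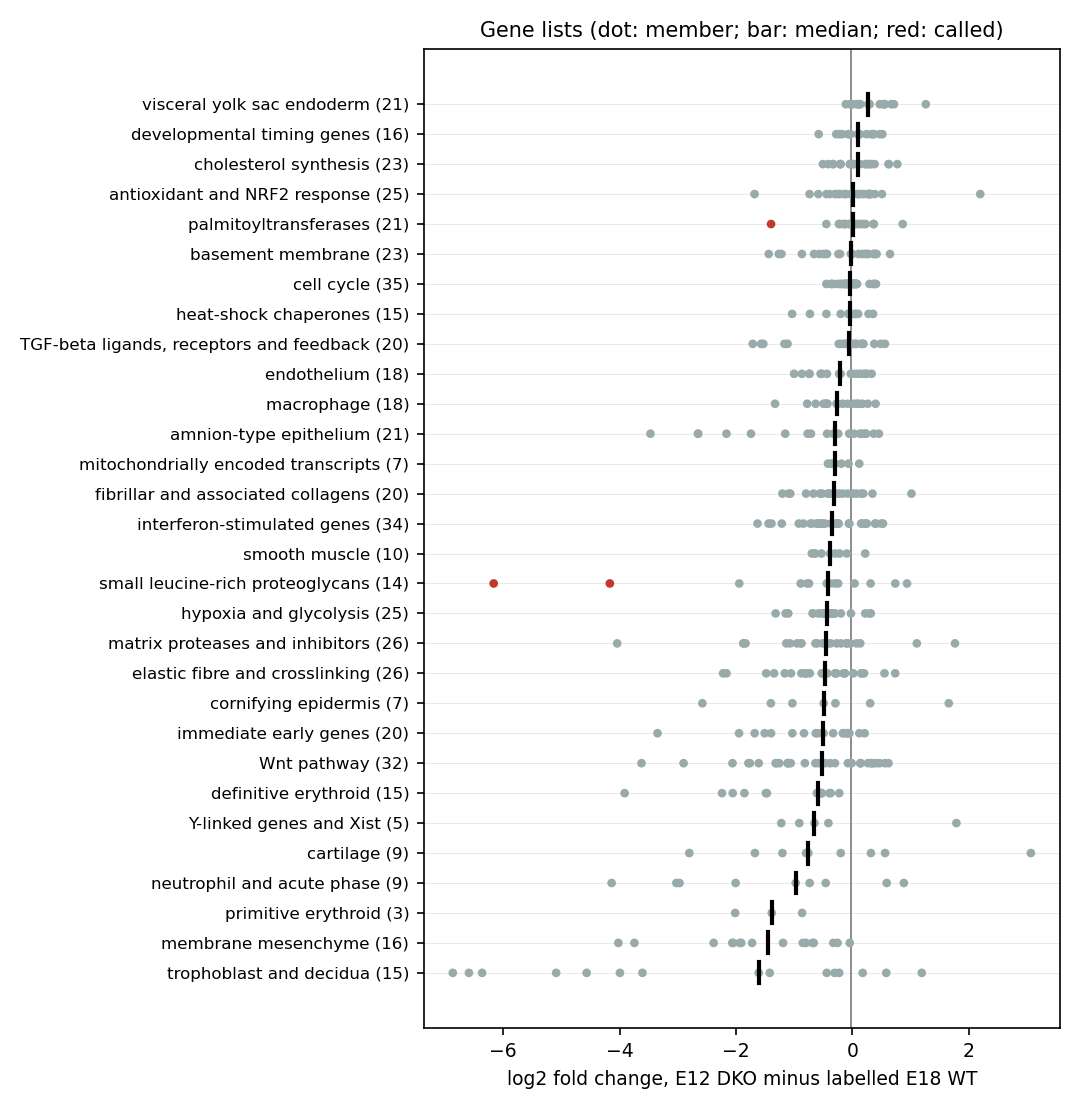
Log2 difference, E12 DKO minus labelled E18 WT (x axis), of every tested member of the 30 gene lists (grey dots, called members red, black bars the list medians; number of tested members in brackets). The red points are Dcn and Bgn among the small leucine-rich proteoglycans and Zdhhc9 among the palmitoyltransferases, and all 16 points of membrane mesenchyme lie left of 0 at a median of -1.46.

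Some large differences were not called. Among genes with a conventional symbol, a mean of at least 5 CPM and no overlap between the groups, Zfp990, a zinc-finger gene, was at 14.7, 13.5 and 14.6 CPM in E12 DKO against 0.0377, 0.352 and 0.369 CPM in labelled E18 WT (log2 difference 5.78 ± 1.04, edgeR adjusted p = 0.071). Its levels in the outside groups ran from 0.218 CPM in an E18 DKO library to 61.9 CPM in an E12 WT library. Hmga1b, a gene similar to the chromatin protein gene Hmga1, was at 13.3, 15.4 and 26.4 CPM against 1.39, 1.14 and 0.369 CPM, while Hmga1 was at 87.3, 75.4 and 60.4 CPM against 86.9, 97.9 and 43.1 CPM. Gucy2c, a guanylate cyclase receptor, was at 34.1, 32.3 and 31.2 CPM against 8.67, 5.74 and 2.34 CPM (log2 difference 2.54 ± 0.52, edgeR adjusted p = 0.15). Abcb1b, a drug efflux transporter, was at 87.4, 54.5 and 424 CPM against 44.9, 18.9 and 52.9 CPM, with E12 DKO library 3 far above the other 2. On the lower side the largest differences among these genes were Cuzd1, Prap1 and placental genes (Psg18, Psg23, Psg27, Prl8a9, Tpbpb and Ceacam12), each highest in library 3 labelled E18 WT. Prap1, a secreted protein of uterus and gut epithelium, was at 0.953, 1.12 and 2.19 CPM against 8.67, 3.11 and 399 CPM.

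Many of the calls were lost with 1 library fewer. Leaving out each of the 6 compared libraries in turn left 9 to 26 called genes, with 9 when labelled E18 WT library 1, 2 or 3 was out and 13, 24 and 26 when E12 DKO library 1, 2 or 3 was. The direction of all 34 was kept in each of these fits. Bgn, Dcn, Eno1b, Gm13394, Gm15772 and Rps26-ps1 stayed called in all 6 of them. Every other call was lost in at least 1: Zdhhc9 and Pop4 stayed called in 1 of the 6 and 1810026B05Rik in 0. Their sizes moved less, with log2 differences of -1.78 to -1.36 for Pop4 and -1.20 to -0.91 for 1810026B05Rik over the 6 fits, each of which has 1 library fewer.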

How the data were processed

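RNA of 12 fetal membrane libraries, 3 in each of 4 groups, was extracted with an RNeasy kit and made into stranded mRNA libraries, per the labels' protocols. The deposited values are raw gene counts, not normalized, per the file headers: featureCounts 1.5.0 with strand option 2 on Ensembl release 86 genes, without reads aligned to several places. Trimmomatic 0.36, STAR 2.4.2a and GRCm38 are named in the submitters' processing notes. Counts were read from the series table. The separate file of E12 DKO library 1 held no count column, and the other 11 files matched their columns exactly. The columns of labelled E18 WT are numbered 2 to 4 and were joined to titles numbered 1 to 3 by these matches. The 48795 genes include 48349 with a symbol, and total counts over the 12 libraries ran from 19967593 to 33065424.

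Genes were filtered with filterByExpr, leaving 18153, TMM-normalised with edgeR 4.0.16 in R 4.3.3, and fitted with 1 quasi-likelihood model, a mean per group and all 12 libraries (8 residual degrees of freedom). The common biological coefficient of variation was 0.373, and within groups 0.176 in E12 DKO, 0.338 in labelled E18 WT, 0.331 in E18 DKO and 0.549 in E12 WT. Benjamini-Hochberg adjusted p-values are over all tested genes, and no fold threshold was used. The SE of a log2 difference is its size over the square root of F. Counting intervals (95%, exact) and the floor of 3 counts per library cover counting error only.

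The members, the 30 gene lists (18 of processes, 12 of cell markers) and the rules were chosen with earlier results of these data known. The text names Bgn and Dcn, every called gene, the 8 largest differences in each direction without overlap at a mean of 5 CPM or more among conventional symbols (no Gm numbers, Rik or pseudogene names), up to 3 genes of each list with the lowest p, and all tested proteoglycans of the family, primitive erythroid and timing genes, 157 in all, of which not every one is printed. Lin28a, Rpl26 and other genes named as examples come from these lists or as matches. Near-identical copies were found with BLAST 2.17.0 on GENCODE M21 transcripts (GRCm38), leaving out genes that overlap on the genome, and biotypes come from that annotation for 18100 tested genes. The look at copies and processed pseudogenes was added after the called genes had been seen.

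Alternatives were DESeq2 1.42.0 size factors and Wald test, library size alone, limma 3.58.1 voom, no filter, 1 CPM in 3 libraries, a 1.5-fold threshold, only the 6 libraries, all but E12 WT library 1, a covariate for the Y-linked mean, a block for the replicate number, each compared library left out, and windows of 5 and 20 Mb. The fit was tested on simulated counts. Plots used Python 3.11.15 and matplotlib 3.10.9.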

Additional observations from a re-analysis of the deposited data

How the results depend on the processing

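The 34 calls kept their direction in all alternatives in which each was tested, and their number was 34 with DESeq2 size factors, with library size alone and with the 1 CPM filter, 43 with no filter and 28 with a 1.5-fold threshold. It was 247 by the DESeq2 Wald test, 16 by limma voom, 73 with only the 6 libraries compared (28 of the 34 among them), 60 without E12 WT library 1, 21 with a covariate for Y-linked level and 9 to 26 with a compared library left out. The fits with only the 6 libraries less library 3 labelled E18 WT (115 calls), and with all but that library and E12 WT library 1 (27 calls), were chosen after seeing the data. Calls with the same direction in E18 DKO against E12 WT numbered 11, and 84 by the DESeq2 Wald test, 5 with the Y-linked covariate and 2 to 7 with a library left out; the cause of these shifts was not tested. Bgn, Dcn, Gm13394 and Rps26-ps1 were called in each of the fits named here other than the 2 chosen after seeing the data. For those 2 only the number of the 34 calls that was kept was taken, 28 and 21.

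Whether the replicate numbers pair the samples could not be settled. The deviations of same-numbered libraries from their group means correlated at 0.1, 0.096 and -0.053. Those of differently numbered libraries correlated at -0.226 to 0.102. With 3 libraries a group these values cannot exclude pairing. With the replicate number as a block, 21 genes were called, and 7 of them had the same direction in the second comparison.

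Signs that turned all belong to uncalled genes. They are Hmga1 (0.038) and Podn (-0.186) by limma voom, Hmga1 (0.018) with the replicate block, and Podn (-0.17), Trim71 (-0.008) and Xist (-0.798) with the Y-linked covariate. Over the fits with a library left out, log2 values ran from -0.711 to 0.332 for Podn, -0.313 to 0.197 for Hmga1, -0.101 to 0.016 for Igf2bp2, -0.249 to 0.05 for Lin28a, -1.94 to 0.903 for Hmga2 and -0.035 to 0.221 for Igf2. They ran from -1.498 to 0.983 for Lor, -1.26 to 0.042 for Col4a6, -0.014 to 0.336 for Lin28b, -0.431 to 0.025 for Plagl1 and -1.837 to 0.22 for Sbsn.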

Other observations

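Mitochondrially encoded transcripts made up 4.34%, 5.07% and 4.19% of counts in E12 DKO and 5.36%, 4.39% and 6.81% in labelled E18 WT, and 21.2% in E12 WT library 3. The mean log2 CPM of Y-linked genes was -2.92, -3.08 and 5.38 in E12 DKO libraries 1 to 3 and 5.09, -1.96 and 5.34 in labelled E18 WT. Each compared group therefore mixes libraries with and without Y-linked expression, in different proportions.

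Cartilage genes were present in both compared groups and overlapped between them. Their summed level was 258, 250 and 415 CPM in E12 DKO and 817, 373 and 627 CPM in labelled E18 WT, beside 65.9 to 82.5 CPM in E18 DKO. Col2a1, the main collagen of cartilage, was at 170, 177 and 314 CPM against 742, 293 and 484 CPM, and at 2.36, 3.33 and 2.23 CPM in E18 DKO. It made up most of the sum in each compared library, so the gap in the sum to E18 DKO is mostly this 1 gene. Acan, the large aggregating proteoglycan of cartilage, was at 0.690, 0.237 and 0.0831 CPM against 0.0377, 0.0293 and 0.0410 CPM, without overlap (log2 difference 3.07 ± 1.15, edgeR adjusted p = 0.47). These values are near the floor, with 21, 7 and 3 counts in E12 DKO and 1 in each labelled E18 WT library.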
